A study of Mus musculus with 8 samples.

Results

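Aminoacyl-tRNA synthetases were examined as 36 genes out of the 55376 in the deposited count table, 20 for the cytosolic enzymes and 16 for the mitochondrial enzymes, whose symbols carry the suffix 2. The genes were taken by symbol, all 36 were present, and all 36 passed the filter on low counts. They were measured by RNA sequencing in macrophages grown from the bone marrow of male mice aged 13 weeks, with M-CSF at 50 ng/mL. The donors were either wild-type (WT) or DNMT3A-HET (HET) animals, and the labels give neither the allele nor the tissue in which it acts. Control cultures received no IL-6, and IL-6 cultures received 10 ng/mL from day 6 for 2 days, with collection on day 8 for all. Each of the 4 groups, WT control, WT IL-6, HET control and HET IL-6, held 2 libraries, numbered 1 and 2. The labels name 3 mice per genotype without tying mice to libraries, so p-values reflect only how far libraries of a group lie apart, part of which may be technical.

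Each synthetase joins 1 amino acid to its tRNA, or a pair of amino acids in the case of the fused enzyme of Eprs, and so supplies ribosomes with charged tRNA. The cytosol and the mitochondrion translate with separate sets of enzymes, all encoded in the nucleus, although Gars and Kars each encode the enzyme of both compartments. When amino acids run short, uncharged tRNA activates the kinase GCN2, phosphorylated initiation factor favours translation of the transcription factor ATF4, and ATF4 in turn induces amino acid transporters, asparagine synthetase and many cytosolic synthetase genes. By that textbook knowledge 13 of the 20 cytosolic genes were grouped as ATF4-linked (Aars, Cars, Eprs, Gars, Iars, Lars, Mars, Nars, Sars, Tars, Vars, Wars and Yars), and the other 7 as not linked (Dars, Farsa, Farsb, Hars, Kars, Qars and Rars). The split was set together with the partner gene lists used below, which were chosen with earlier results of these data known.

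ATF4 binds the C/EBP-ATF response element, whose core letters TGATGNAA were searched on both strands of the RefSeq promoter windows (build GRCm38.p6), which run from 250 bases before to 50 bases after each start. Windows were found for 27 of the 36 genes, and none for Cars, Lars, Nars, Vars, Wars, Hars, Rars, Hars2 and Pars2. The core was present in 5 of 8 ATF4-linked genes, 0 of 5 other cytosolic genes and 0 of 14 mitochondrial genes, against 4.51% of all 27025 genes in that table. The full cAMP response element TGACGTCA, which does not overlap these matches, was in 0 of the 27 genes and in 2.03% of all genes. The 5 windows with a match are shown because they hold the core, and that of Sars, which had the largest response and no match, is shown beside them. Each stretch runs 5′ to 3′ along the gene from 130 bases before to 30 bases after the RefSeq start, and capitals mark the core or its reverse complement.
Aars (chr8:111033712-111033871, plus strand): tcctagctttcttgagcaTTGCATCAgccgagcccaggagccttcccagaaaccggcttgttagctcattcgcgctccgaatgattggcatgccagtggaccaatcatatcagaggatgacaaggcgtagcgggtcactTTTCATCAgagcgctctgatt
Gars (chr6:55037871-55038030, plus strand): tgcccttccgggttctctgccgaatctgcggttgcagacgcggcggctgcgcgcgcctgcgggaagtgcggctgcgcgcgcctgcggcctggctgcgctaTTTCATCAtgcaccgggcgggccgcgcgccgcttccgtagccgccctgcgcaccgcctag
Iars (chr13:49682000-49682159, plus strand): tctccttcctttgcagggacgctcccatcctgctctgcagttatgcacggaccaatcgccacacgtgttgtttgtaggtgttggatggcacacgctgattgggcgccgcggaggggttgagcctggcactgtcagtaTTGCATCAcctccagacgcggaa
Tars (chr15:11399629-11399788, minus strand): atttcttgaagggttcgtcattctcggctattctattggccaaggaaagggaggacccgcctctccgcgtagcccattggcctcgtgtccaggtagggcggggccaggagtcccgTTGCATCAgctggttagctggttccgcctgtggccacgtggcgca
Yars (chr4:129189773-129189932, plus strand): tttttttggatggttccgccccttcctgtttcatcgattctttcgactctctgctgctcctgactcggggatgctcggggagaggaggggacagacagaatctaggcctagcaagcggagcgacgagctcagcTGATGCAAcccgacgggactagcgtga
Sars (chr3:108445230-108445389, minus strand): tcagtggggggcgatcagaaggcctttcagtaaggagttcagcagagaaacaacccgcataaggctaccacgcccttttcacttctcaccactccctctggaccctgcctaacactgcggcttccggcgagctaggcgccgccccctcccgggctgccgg
The stretches of Aars and Yars lie wholly inside the gene as the count table places it, because that gene model begins further upstream, and the stretch of Sars lies wholly before it. A match is a description of these letters and was not tested as a binding site.

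Total counts per library lay between 18926641 and 24881197, except in HET IL-6 number 2, with 50137897. All 9 macrophage markers were above 1 CPM (counts scaled to library size) in every group. They summed to 14000 to 14550 CPM in the control groups and 16170 to 18170 CPM in the IL-6 groups. Mrc1 had the largest increase in CPM, from 2051 and 2099 to 3920 and 4024 CPM in WT and from 1473 and 1603 to 4260 and 4461 CPM in HET. Other macrophage markers went both ways. In HET, Csf1r went from 2449 and 2376 CPM in control to 1854 and 1909 CPM with IL-6, and Fcgr1 from 239.7 and 266 to 367 and 371.1 CPM. The 5 markers of T and NK cells summed to at most 0.0441 CPM. The 4 monocyte markers, of which 2 (Ccr2 and Spn) were above 1 CPM, summed to 95.9 to 96.0 CPM in HET IL-6 and 113 to 127 CPM in the other groups. The 8 neutrophil markers summed to 1.28 to 1.58 CPM in WT control and HET IL-6 and 2.48 to 2.89 CPM in WT IL-6 and HET control, with Ly6g at 0 in 7 of 8 libraries. The 3 endothelial markers summed to 27.7 to 34.7 CPM in the control groups and 52.2 to 55.95 CPM in the IL-6 groups, nearly all from Kdr. The part of these lists in the results that follow was not tested. Dnmt3a, the gene in the genotype label, stood at 275 and 243.5 CPM in WT control, 166 and 248 CPM in HET control, 174.5 and 183 CPM in WT IL-6, and 140.1 and 213 CPM in HET IL-6 (numbers 1 and 2). The number 2 libraries labelled HET were thus not below both WT libraries of their treatment. As the allele is not stated, this checks the label only in part, and counts of called genes are also given without those 2 libraries.

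Other genes overlap the exons of 13 of the 36, over 0.505% (Yars) to 24.2% (Iars2) of their bases, among them Hars and Hars2 with each other, and these counts are uncertain to that extent. Per kilobase of exon, the cytosolic genes were the higher expressed. The length used was that of all exon bases in the gene model, such as 18102 for Eprs and 11294 for Mars2. The length of the transcripts present was not measured, so levels per kilobase depend on these models. Averaged over the 8 libraries, their levels ran from 11.7 CPM per kilobase for Farsa, a subunit of the phenylalanine enzyme, to 88.5 for Nars, the asparagine enzyme. Gars (glycine) followed Nars at 56.3 and Rars (arginine) at 49.3 CPM per kilobase. Mitochondrial levels other than Lars2 ran from 0.564 for Mars2 (methionine) to 9.07 CPM per kilobase for Iars2 (isoleucine), so this range and the cytosolic range did not overlap. Neighbours in the order mostly overlapped in their spread over libraries: Sars at 43.8 ranged from 32.0 to 59.1, which covered the means of Iars (42.7), Aars (36.9) and Mars (34.5 CPM per kilobase).

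**Figure D1:**
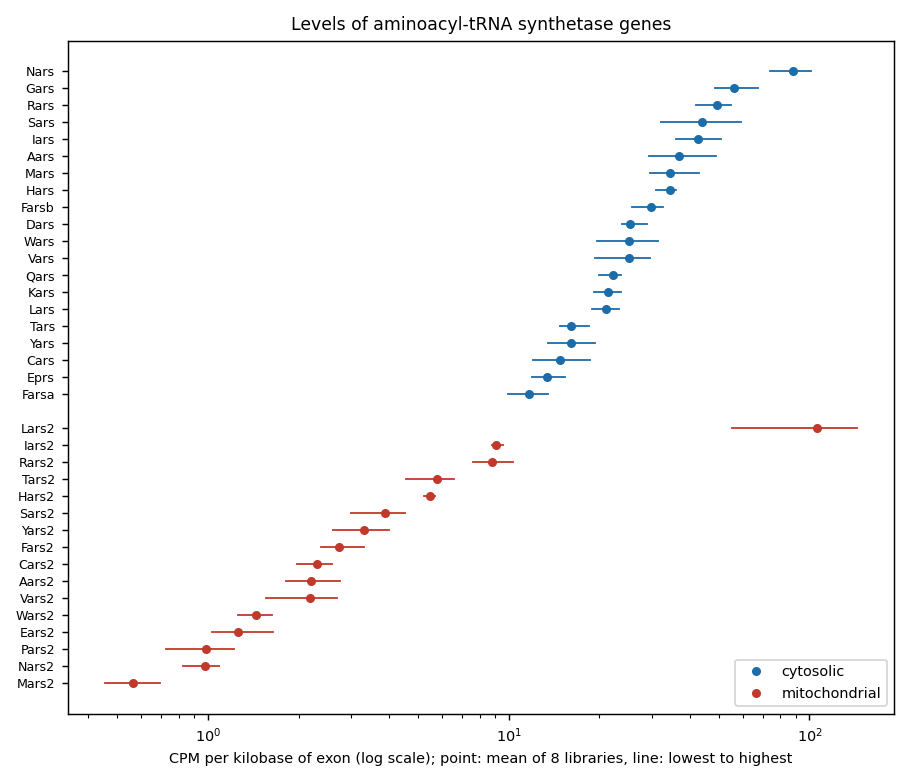
Levels of the 20 cytosolic (blue) and 16 mitochondrial (red) synthetase genes as CPM per kilobase of exon on a log axis, with the mean of 8 libraries as a point and the lowest to highest library as a line. Lars2, at 105.9, is the 1 mitochondrial gene within or above the cytosolic range.

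Lars2, the mitochondrial leucine enzyme (chromosome 9, 123366927 to 123462666, mm10), stood apart at 105.9 CPM per kilobase. Its values were 1160 and 1594 CPM in WT control, 845 and 1461 in WT IL-6, 1457 and 612 in HET control, and 1310 and 953 in HET IL-6. The libraries of each group were further apart than any group means, and the groups overlapped. Its transcripts share a stretch of 72 bases at 98.6% identity with the noncoding gene Gm15564, and 50 bases at 96.0% with AA474408. Gm15564 was at 29.1 and 66.2 CPM in WT control and 35.6 and 35.9 in WT IL-6 (numbers 1 and 2). In HET it was at 45.45 and 20.8 CPM in control and 54.9 and 43.9 CPM with IL-6. Its lowest and highest libraries were those of Lars2, but the libraries between them did not keep the Lars2 order. Whether reads of these genes were exchanged in counting was not tested, and the level of Lars2 is uncertain. Kars, for comparison, kept within 85.8 to 105.5 CPM over all libraries.

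After IL-6 in HET macrophages, 13 of the 20 cytosolic genes rose and none fell, while 8.87% of all tested genes rose and 9.41% fell (edgeR quasi-likelihood test, adjusted p under 0.05, here and throughout). The genes that rose were 11 of the 13 ATF4-linked genes, all but Tars and Vars, with Farsb and Rars of the other 7. The median log2 fold change was 0.41 over the ATF4-linked genes, 0.11 over the other cytosolic genes and 0.01 over all tested genes. In bulk samples a change in RNA per cell and a change in the share of cells cannot be told apart.

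Sars, the serine enzyme (chromosome 3, 108424865 to 108445209), had the largest response. It stood at 173 and 197 CPM in HET control and at 304 and 289.8 CPM in HET IL-6, a log2 fold change of 0.69 ± 0.12 (standard error, SE, as after every log2 value; n = 2 libraries per group; edgeR adjusted p = 0.0012). Both IL-6 libraries lay above both controls. Aars, the alanine enzyme (chromosome 8, 111033144 to 111057664), went from 287.5 and 306 CPM to 453 and 446 CPM, a log2 fold change of 0.60 ± 0.10 (edgeR adjusted p = 0.000836). Its groups were likewise apart, and 15.1% of its exon bases are shared with Exosc6 and Gm24103, so its counts are uncertain to that extent. Mars, the methionine enzyme (chromosome 10, 127296221 to 127311786), went from 104 and 108 CPM to 147 and 146 CPM, a log2 fold change of 0.47 ± 0.09 (edgeR adjusted p = 0.00219). It overlaps the stress gene Ddit3 on the opposite strand over 1.99% of its exon bases.

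The cysteine, isoleucine, asparagine and glycine enzymes followed. Cars (chromosome 7, 143557230 to 143600090) went from 85.2 and 89.7 CPM in HET control to 122 and 119 CPM in HET IL-6, a log2 fold change of 0.46 ± 0.10. Iars (chromosome 13, 49682100 to 49734267) went from 189.5 and 199 CPM to 262 and 268 CPM, a change of 0.45 ± 0.07. In both the groups were apart by more than the distance between libraries of a group. Nars (chromosome 18, 64499647 to 64516652) went from 321 and 334 CPM to 442 and 442 CPM, a log2 change of 0.43 ± 0.08. Gars (chromosome 6, 55038007 to 55079500) went from 152 and 156.5 CPM to 209.9 and 198 CPM, a change of 0.40 ± 0.08. The highest edgeR adjusted p of these 4 genes was 0.00441, for Cars.

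Smaller increases were called for Yars (tyrosine), Rars, Farsb, Wars (tryptophan), Eprs (glutamate and proline) and Lars (leucine), with log2 fold changes from 0.41 for Yars to 0.27 for Lars. Rars (chromosome 11, 35808381 to 35834506) went from 136 and 139 CPM to 176 and 169 CPM, and Wars (chromosome 12, 108860030 to 108894174) from 83.2 and 83.7 CPM to 108 and 101 CPM. Neither pair of groups overlapped. Among the genes that did not pass, Tars had a log2 change of 0.21 ± 0.08 (edgeR adjusted p = 0.0722) and Vars, the valine enzyme, 0.05 ± 0.08 (0.728). Kars and Dars were below zero, at -0.13 ± 0.08 and -0.02 ± 0.09. Of the 20 cytosolic genes, 18 had both HET IL-6 libraries above both HET controls and 2 had both below, against 32.8% and 32% of all tested genes.

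**Figure D2:**
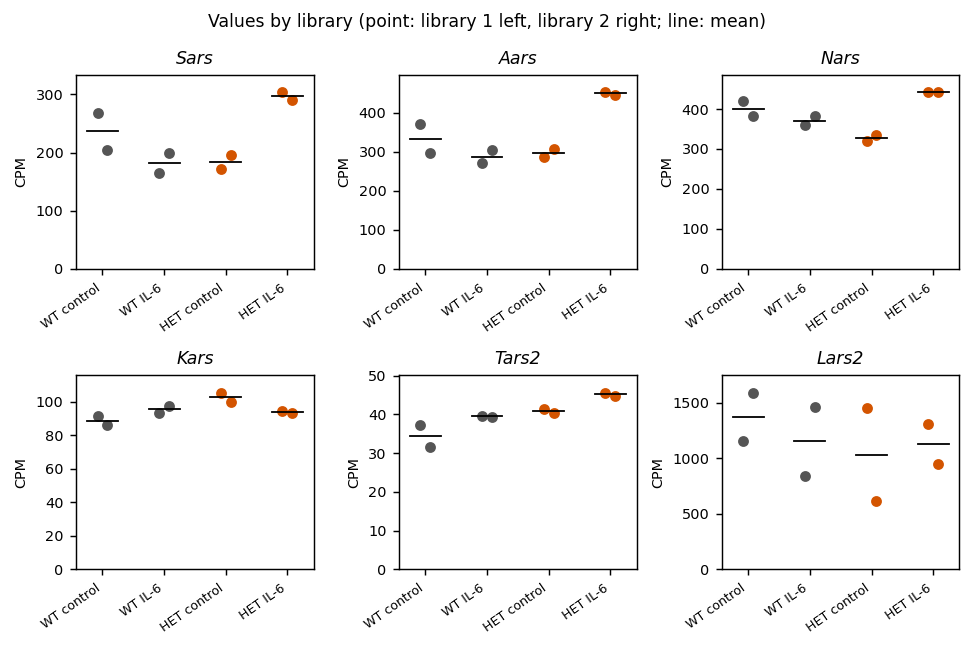
CPM of 4 cytosolic and 2 mitochondrial genes in the 8 libraries, with libraries 1 and 2 as the left and right point and the group mean as a line, each axis starting at 0. Sars, Aars and Nars are highest in both HET IL-6 libraries, Kars is not, and Lars2 spreads from 612 to 1594 CPM.

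The count rested on single libraries: leaving out HET IL-6 number 1 gave 7, HET control number 1 gave 6 and HET control number 2 gave 7, with Sars, Aars, Mars, Iars, Nars and Gars called without each library in turn. With both number 2 libraries of HET removed it was 2 (Aars and Sars), and with both number 1 libraries removed 0, where the lone libraries are assumed to vary like the other groups, while the cytosolic median log2 change was 0.37 and 0.29 there against 0.32 with all libraries.

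In WT macrophages, the same treatment called 1 cytosolic gene, Sars, which fell, and none rose, against 10.4% and 7.91% of all tested genes that fell and rose. Sars stood at 269 and 205 CPM in WT control and 164 and 199 CPM in WT IL-6, a log2 fold change of -0.39 ± 0.12 (edgeR adjusted p = 0.0403). Control number 1 was far above the other 3 WT libraries, and the groups did not overlap. The call was lost without any 1 of 5 libraries, namely HET IL-6 number 1 or 2, HET control number 1, WT IL-6 number 1 and WT control number 1. Without WT control number 2, the count of genes that fell was 6, with Aars, Cars, Gars, Vars and Wars added.

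The estimates of the ATF4-linked genes in WT all had the opposite sign to those in HET: 13 of 13 were below zero, from -0.39 for Sars to -0.02 for Iars, with a median log2 change of -0.11. The next lowest were Wars at -0.28 ± 0.10 and Cars at -0.25 ± 0.10, which did not pass (edgeR adjusted p = 0.0585 and 0.0964). All 7 other cytosolic genes were above zero in WT, from 0.04 for Farsa to 0.19 for Rars, with a median of 0.10, and none passed. Over all tested genes the median was -0.01, with 7160 of 13721 below zero and 6561 above. The ATF4-linked median in WT was -0.04 without WT control number 1 and -0.22 without WT control number 2. All these genes were read in the same WT libraries, so their signs are not independent of each other.

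**Figure D3:**
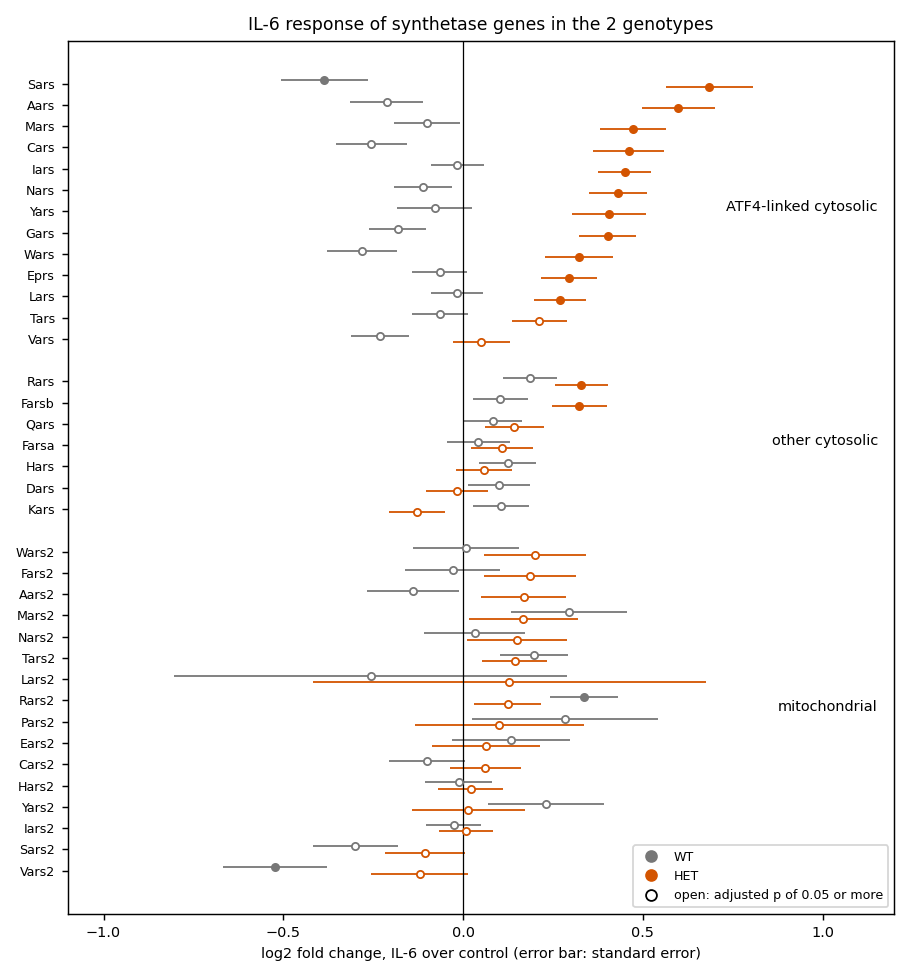
Log2 fold change of IL-6 over control in WT (grey) and HET (orange) for the 36 genes, with the SE as a bar and filled points for edgeR adjusted p under 0.05. All 13 ATF4-linked genes lie left of 0 in WT and right of 0 in HET, whereas the mitochondrial genes range from -0.52 to 0.34 in WT and from -0.12 to 0.20 in HET.

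The difference of the IL-6 response, HET minus WT, was above zero and called for 8 of the 20 cytosolic genes, against 4.52% of all tested genes, and none was called below zero, against 3.60% (8.12% either way). All 8 were ATF4-linked. The largest was that of Sars, 1.07 ± 0.17 on the log2 scale (edgeR adjusted p = 0.00216), followed by Aars at 0.81 ± 0.14 (0.00417), Cars at 0.72 ± 0.14 (0.00767) and Wars at 0.60 ± 0.14 (0.0151). Gars at 0.58 ± 0.11, Mars at 0.57 ± 0.13, Nars at 0.54 ± 0.11 and Iars at 0.47 ± 0.10 completed the called genes.

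The remaining 5 ATF4-linked genes, Yars, Eprs, Lars, Vars and Tars, had differences from 0.49 down to 0.28 that did not pass. All 5 had an unadjusted p under 0.05, as did 3042 of the 13721 tested genes. The median difference was 0.54 over the ATF4-linked genes, 0.06 over the 7 other cytosolic genes and 0.02 over all tested genes. Of the 7, Kars had the lowest value, -0.23 ± 0.11 (edgeR adjusted p = 0.231). Whether the 13 differ from the 7 as a group was not tested. Leaving out 1 library turned the count of 8 into 3 (HET IL-6 number 1), 4 (HET IL-6 number 2), 2 (HET control number 1) or 12 (WT control number 2). Leaving out a pair of HET libraries turned it into 3 (number 2) or 1 (number 1). Sars was called in all 17 alternatives, with a difference from 0.86 to 1.26.

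The order of the 8 libraries describes the same values in another way and is not independent of the calls above. The 2 HET IL-6 libraries were the 2 highest of the 8 in 13 of 13 ATF4-linked genes, 3 of 7 other cytosolic genes and 3 of 16 mitochondrial genes, against 12.2% of all tested genes. WT control number 1 came next in 12 of the 13. Summed over the 13 genes, CPM was 2834 and 2774 in HET IL-6, 2047 and 2134 in HET control, 2051 and 2183 in WT IL-6, and 2504 and 2197 in WT control. The HET IL-6 libraries were above all others, and the WT control libraries were further apart than those of any other group. The 7 other cytosolic genes summed to 689 to 704 CPM in the 4 control libraries and to 749.9 to 760.5 CPM in the 4 IL-6 libraries, without overlap and with the genotypes mixed.

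**Figure D4:**
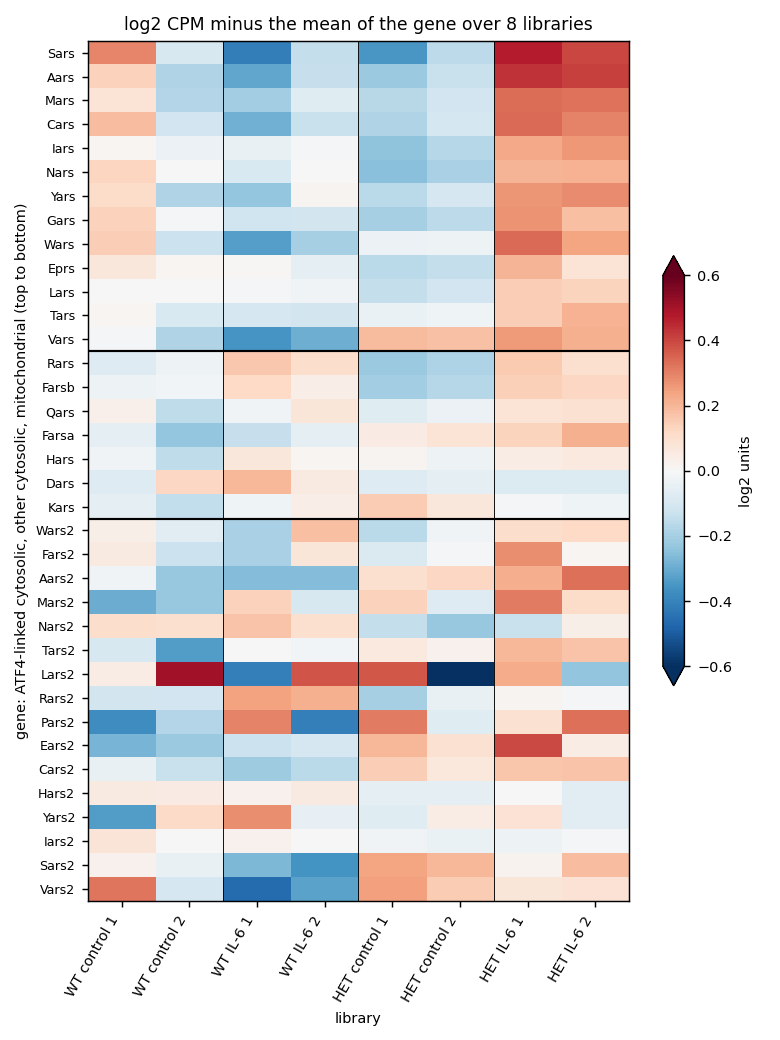
Log2 CPM of each gene minus its mean over the 8 libraries, by library, with lines between the ATF4-linked, other cytosolic and mitochondrial genes and colours limited at 0.6 log2 units either way. The ATF4-linked block is reddest in both HET IL-6 libraries, and these libraries are the 2 highest in only 3 of the 16 mitochondrial genes.

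Without IL-6, HET and WT macrophages differed in 0 of 36 synthetase genes, against 4.85% of all tested genes, 2.81% higher and 2.05% lower. At an unadjusted p under 0.05 there were 9 of 20 cytosolic and 2 of 16 mitochondrial genes, against 2903 of 13721 tested genes. DESeq2 called Nars, lower in HET, and Vars, higher in HET, against 771 of the 13721 tested genes. The lowest cytosolic estimates were those of Sars, -0.36 ± 0.12 (edgeR adjusted p = 0.107), and Nars, -0.29 ± 0.08 (0.054), and the highest cytosolic estimate was that of Vars, 0.28 ± 0.08 (0.0633). Of the ATF4-linked genes 11 of 13 had estimates below zero, with a median of -0.17. With offsets for GC content and gene length, 5 cytosolic genes (Sars, Aars, Cars, Gars and Nars) were called lower and Kars higher in HET. Of the 13721 tested genes, these offsets called 328 lower and 313 higher. On leaving out 1 library the cytosolic count was 3, all lower, for WT control number 2 and 1 for each other WT library, and the mitochondrial count was 1 for WT control number 1.

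After IL-6, 12 of 20 cytosolic genes were higher in HET than in WT and none was lower, against 13.2% and 8.80% of all tested genes (22.0% either way). The 12 were 11 ATF4-linked genes, all but Eprs and Lars, and Farsa. This comparison shares its HET IL-6 libraries with the IL-6 response in HET, so the 2 counts are not independent. Vars (chromosome 17, 35000987 to 35016322) stood at 109 and 113 CPM in WT IL-6 and 165.5 and 161 CPM in HET IL-6, a log2 fold change of 0.56 ± 0.08 (edgeR adjusted p = 0.000492). Unlike Sars, at 0.71 ± 0.12 (0.00148), it was also high in HET control, with 158 and 157 CPM against 138 and 122 CPM in WT control.

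The call of Vars ended with GC and length offsets, where its log2 change was 0.03 (edgeR adjusted p = 0.777). GC offsets also lowered the share of called genes that were higher in HET over all tested genes, from 60 to 46.6%, and from 55.7 to 45.1% for the difference of responses. Aars, Cars, Mars, Sars and Wars were called higher in HET after IL-6 under all 16 alternatives of this comparison, with Sars at 0.55 to 0.85. The count of 12 fell to 6 on leaving out HET IL-6 number 1, HET IL-6 number 2 or WT IL-6 number 1, and likewise with either same-numbered pair of HET libraries removed.

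Of the 16 mitochondrial genes, none was called in the IL-6 response of HET, against 18.3% of all tested genes. None was called in the difference of responses, against 8.12%. None had an unadjusted p under 0.05 in either, against 4120 (response of HET) and 3042 (difference) of 13721 tested genes. DESeq2 added no call in either. On leaving out WT control number 2, Vars2 was called in the difference (0.60, edgeR adjusted p = 0.0322). Their median log2 changes were 0.11 in HET and 0.00 in WT, and the median difference was 0.07. In WT, Rars2 rose and Vars2 fell, 2 of 16 against 18.3% of all tested genes. Rars2, the arginine enzyme (chromosome 4, 34614957 to 34660167), was at 22.5 and 22.4 CPM in WT control and 28.6 and 28.1 CPM in WT IL-6, a log2 fold change of 0.34 ± 0.09 (edgeR adjusted p = 0.0227). In HET it went from 21.1 and 23.5 to 24.5 and 24.2 CPM, a change of 0.12 ± 0.09 that did not pass, and the difference between genotypes did not pass either (-0.21 ± 0.13, adjusted p = 0.381). Vars2, the valine enzyme (chromosome 17, 35655634 to 35667592), was at 14.7 and 10.9 CPM in WT control and 8.52 and 9.38 CPM in WT IL-6, a change of -0.52 ± 0.14 (edgeR adjusted p = 0.0208). Its groups were apart, with the 2 controls far from each other. Tars2, the threonine enzyme (chromosome 3, 95739976 to 95760206), was at 37.3 and 31.6 CPM in WT control, 39.7 and 39.3 in WT IL-6, 41.5 and 40.5 in HET control, and 45.7 and 44.9 in HET IL-6. Its groups did not overlap and followed that order, but no comparison passed with all libraries and no offsets, the nearest being HET against WT after IL-6 at 0.20 ± 0.09 (edgeR adjusted p = 0.142). Neither call was kept on leaving out WT IL-6 number 1 or WT control number 1, and that of Rars2 was also lost on leaving out WT IL-6 number 2. With GC and length offsets, Vars2 did not pass for IL-6 in WT and Tars2 did (0.22, edgeR adjusted p = 0.0425). On leaving out WT control number 1, the log2 change of Tars2 was 0.33 for IL-6 in WT and 0.38 for HET against WT in control. Over the alternatives the log2 change of Vars2 in WT lay between -0.72 and -0.29.

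After IL-6, 4 of the 16 mitochondrial genes were higher in HET than in WT and none was lower, against 13.2% and 8.80% of all tested genes. Aars2 (chromosome 17, 45506841 to 45520843), the alanine enzyme, was at 8.68 and 8.68 CPM in WT IL-6 and 12.1 and 13.1 CPM in HET IL-6, a log2 change of 0.54 ± 0.12 (edgeR adjusted p = 0.00766). Vars2 at 0.47 ± 0.14, Sars2 (serine; chromosome 7, 28741992 to 28753871) at 0.42 ± 0.12 and Cars2 (cysteine; chromosome 8, 11513977 to 11550783) at 0.36 ± 0.10 were the others. Sars2 went from 10.6 and 9.92 CPM in WT IL-6 to 12.9 and 14.4 CPM in HET IL-6, and Cars2 from 14.3 and 14.9 to 18.7 and 18.7 CPM. The groups were apart in all 4 genes. Aars2, Vars2 and Sars2 are the 3 most GC-rich mitochondrial members, at 58.6 to 60.1%, and with GC and length offsets their log2 changes were 0.05, 0.05 and -0.06, which left Cars2 alone called. Leaving out HET IL-6 number 1 left 1 of these 4 calls, and leaving out HET IL-6 number 2 or WT IL-6 number 1 left 0.

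Set side by side by amino acid, 15 pairs of a cytosolic and a mitochondrial gene could be formed, with Fars2 paired to each phenylalanine subunit gene. The cytosolic level per kilobase was the higher in 14 of 15, by 2.78-fold for Tars over Tars2 to 90.7-fold for Nars over Nars2, and Lars with Lars2 was the exception. The log2 response to IL-6 in HET was higher for the cytosolic gene in 14 of 15 pairs, the exception being Farsa (0.11) with Fars2 (0.19). Sars and Sars2 were furthest apart, at 0.69 and -0.11. Other pairs lay closer than an SE, such as Hars (0.06 ± 0.08) with Hars2 (0.02 ± 0.09) and Lars (0.27 ± 0.07) with Lars2 (0.13 ± 0.55). The order within pairs was not tested. For the difference between genotypes the cytosolic gene was the higher in 11 of 15. The SE for the response in HET was 0.15 for Mars2, the lowest gene per kilobase, and 0.09 for Mars. Without Lars2, summed mitochondrial CPM was 260.5 and 276 in WT control, 273 and 274 in WT IL-6, 277.5 and 279.5 in HET control, and 289 and 293 in HET IL-6. The HET IL-6 libraries were again the highest, by a margin smaller than the distance between the WT control libraries.

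The cytosolic genes were also divided by complex and by catalytic fold. Of the 8 members of the multisynthetase complex, a cytosolic assembly that includes Eprs, Iars, Lars and Mars, 5 rose with IL-6 in HET, as did 8 of the 12 outside it, against 8.87% of all tested genes. The difference of responses was called above zero for 2 of 8 and 6 of 12, against 4.52%, and medians were 0.21 and 0.51. By fold, with Eprs, which joins a domain of each class, counted as class I, 8 of 10 class I and 5 of 10 class II genes rose in HET, and 4 of each were called in the difference, against the same shares. None of these splits was tested.

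Partner genes of the synthetases were examined next. Of all tested genes, 18.3% were called for IL-6 in WT and 18.3% in HET. The shares were 4.85% for HET against WT in control, 22.0% after IL-6 and 8.12% for the difference. Whether these short lists depart from those shares was not tested. Of 6 tested genes for scaffold and editing proteins, Dtd1, a deacylase that removes D-amino acids from tRNA, fell with IL-6 in WT (-0.64 ± 0.17, edgeR adjusted p = 0.0179), from 5.90 and 6.00 to 3.56 and 4.13 CPM. In HET it was at 5.34 and 4.64 CPM in control and 5.31 and 6.02 CPM with IL-6, and the difference of responses was 0.83 ± 0.23 (0.0437). Eef1e1, a scaffold of the complex, rose in WT by 0.31 ± 0.10 (0.0499). None of the 4 genes that complete mitochondrial charging (Gatb, Gatc, Qrsl1 and Mtfmt) was called in any of the 5 comparisons. Tarsl2, a further threonine synthetase gene outside the 36, fell in HET by 0.46 ± 0.13 on the log2 scale (0.0269). Of 7 genes for tRNA export and elongation, the export receptor Xpot rose in HET by 0.28 ± 0.08 (0.0213), Eef1g rose in WT by 0.32 ± 0.09 (0.0167), and the mitochondrial elongation factor Tsfm was higher in HET than in WT after IL-6 by 0.59 ± 0.13 (0.00722).

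Genes of the uncharged tRNA and ATF4 response were followed as the neighbouring pathway, in a list chosen with earlier results of these data known. Of 23 such genes, 2 rose and 12 fell with IL-6 in WT, against 7.91% and 10.4% of all tested genes. In HET 14 rose and 1 fell, against 8.87% and 9.41%. The difference of responses was called for 12, all above zero, against 4.52% above and 3.60% below. On leaving out 1 library, the 14 calls in WT were 7 for WT IL-6 number 1, and the 15 calls in HET were 9 for HET IL-6 number 2 or HET control number 1. With both number 1 libraries of HET removed, the 15 calls in HET were 8 and the 12 of the difference were 7, and with both number 2 libraries removed the 15 were 9. Atf4 itself was at 388 and 340.1 CPM in WT control, 271 and 295 in WT IL-6, 302 and 314.5 in HET control, and 389.9 and 380.4 in HET IL-6. It fell in WT by 0.36 ± 0.09 and rose in HET by 0.32 ± 0.08, and the difference was 0.68 ± 0.12 (edgeR adjusted p = 0.00396). The groups were apart within each genotype, and WT control number 1 reached the HET IL-6 level.

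Asns, asparagine synthetase, was at 104 and 88.4 CPM in WT control, 57.1 and 62.7 in WT IL-6, 45.3 and 58.4 in HET control, and 131 and 119.9 in HET IL-6. Its difference of responses was 1.95 ± 0.16 (edgeR adjusted p = 7.02e-05), larger than that of any synthetase. It was also lower in HET than in WT control, by a log2 change of -0.89 ± 0.12 (0.00208). Among the upstream kinase genes, Eif2ak4, which encodes GCN2, had changes of 0.01 ± 0.09 in WT and 0.08 ± 0.09 in HET, and neither passed. Eif2ak2 fell in both genotypes, by 0.34 ± 0.10 in WT and 0.39 ± 0.10 in HET. Gcn1l1, which encodes the GCN2 activator GCN1, was higher in HET in control and after IL-6, by 0.39 ± 0.08 in each, and with GC and length offsets its value after IL-6 was -0.01. Slc7a11, the cystine transporter, and Ddit4, an inhibitor of mTORC1, rose in both genotypes.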

How the data were processed

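Polyadenylated RNA was sequenced from a stranded kit, per the labels' protocols. The authors deposited raw counts per gene for 8 libraries, with gene length in bases as another column. Per the submitters' processing notes, the tools were STAR 2.7.9a, featureCounts 1.6.2, fastp 0.12.4 and SAMtools 1.9, with build mm10. Neither annotation release nor strand setting is given in the sources used here, so reads of overlapping genes could not be told apart. The 13 members that overlap another gene were found from the exon positions in the count table. Gene positions there matched GENCODE M21 models for 97.9% of genes and all 36 members.

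Counts were fitted with edgeR 4.0.16 in R 4.3.3: filterByExpr (minimum count 10; 13721 genes kept), TMM scaling, 1 mean for each of the 4 groups, robust quasi-likelihood F test, 4 residual degrees of freedom, 2-sided, Benjamini-Hochberg over all tested genes, called at adjusted p under 0.05. The shared spread may be too small for WT and too large for HET, whose libraries differed by a median of 0.168 and 0.148 (WT control, WT IL-6) and 0.0973 and 0.0828 (HET control, HET IL-6) on the log2 scale. No library repeated another. A floor of 3 counts was 0.0598 to 0.159 CPM. The script was tested on simulated data. Alternatives were other scalings, no filter, DESeq2 1.42.0, GC and length offsets, replicate blocks and left-out libraries. The members and lists were chosen with earlier results of these data known. All 36 members could be named, with full values for the 10 cytosolic and 6 mitochondrial genes of smallest p in any comparison; of the partner lists, called genes and up to 4 others. Members whose values were singled out for level (Lars2, Kars, Mars2) were chosen after seeing them. Promoter stretches were printed for the members with a motif match (Aars, Gars, Iars, Tars and Yars) and for Sars, likewise after seeing the results. Aarsd1 was too low to test. The result of 1 partner gene is not reported here.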

Additional observations from a re-analysis of the deposited data

Results flagged for a closer look

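The IL-6 response differed between HET and WT, by the edgeR test of the difference itself (adjusted p under 0.05, 2 libraries per group), for 8 synthetase genes. In log2 units, HET minus WT, the differences were 1.07 for Sars, 0.81 for Aars, 0.72 for Cars, 0.60 for Wars, 0.58 for Gars, 0.57 for Mars, 0.54 for Nars and 0.47 for Iars. In each of these 8 genes the estimated response was above zero in HET, where all 8 were called. In WT the estimates were below zero, from -0.39 ± 0.12 for Sars to -0.02 ± 0.07 for Iars, and only that of Sars was called.

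The same test separated the responses of 13 genes of the partner lists. The difference was 0.83 for Dtd1. Among stress response genes it was 3.28 for Phgdh, 2.82 for Trib3, 1.99 for Vldlr, 1.95 for Asns, 1.84 for Atf5, 1.44 for Slc7a5, 1.37 for Sesn2, 1.35 for Shmt2, 1.08 for Ddit3, 0.84 for Nupr1, 0.68 for Atf4 and 0.39 for Slc38a2. Of these, Dtd1 (adjusted p = 0.0437), Slc38a2 (0.0427), Nupr1 (0.0394) and Vldlr (0.0391) were nearest to the threshold.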

How the results depend on the processing

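Leaving out each library in turn moved the counts of called genes as follows. For IL-6 in WT they ranged from 1577 to 3073 over all genes (2515 with all libraries), 0 to 6 cytosolic and 0 to 2 mitochondrial synthetases. For IL-6 in HET they ranged from 1203 to 3061, 6 to 14 and 0 to 0. For HET against WT in control they ranged from 33 to 1304, 0 to 3 and 0 to 1, and after IL-6 from 879 to 4000, 6 to 13 and 0 to 4. For the difference of responses they ranged from 304 to 2123, 2 to 12 and 0 to 1. Without both HET number 2 libraries the counts over all genes were 835 (IL-6 in HET), 203 (HET against WT in control), 862 (after IL-6) and 428 (difference), the cytosolic counts 2, 6 and 3 (IL-6 in HET, HET against WT after IL-6, difference), and the mitochondrial counts 1 for IL-6 in WT and 0 after IL-6. Without both HET number 1 libraries they were 697, 79, 1042 and 188 over all genes, 0, 6 and 1 cytosolic, 0 cytosolic and 1 mitochondrial for IL-6 in WT, and 1 mitochondrial after IL-6.

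Scaling to total counts called 3 cytosolic genes for IL-6 in WT. With no filter it was 2, and for HET against WT in control 2 cytosolic and 1078 of all genes were called, where DESeq2 also called 2 cytosolic genes. GC and length offsets gave 3 cytosolic genes for IL-6 in WT, 6 for HET against WT in control and 13 for the difference, 1 mitochondrial gene after IL-6, and over all genes 1574 after IL-6 (3021 without) and 1746 for the difference (1114 without). The sign turned for Sars2 (-0.0629, adjusted p = 0.744) and Gcn1l1 (-0.00565, 0.964) after IL-6; the cause was not tested.

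The labels do not say that the numbers pair libraries. Number 1 minus number 2 correlated at -0.214 between WT treatments and 0.189 between HET treatments. With the replicate block nested in genotype, 0 cytosolic and 0 mitochondrial genes were called for IL-6 in WT, 7 cytosolic for IL-6 in HET, and 4 cytosolic and 506 of all genes for the difference; with the number shared as a block 339 genes were called for HET against WT in control. Crossing the WT IL-6 numbers in the block, a setting chosen after seeing the data, gave 4443 genes, 7 cytosolic and 4 mitochondrial, for IL-6 in WT and 3121 genes, 15 cytosolic, for the difference.

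Of 651 pairs of a called synthetase and an alternative, 485 stayed called in the same direction, 165 kept the direction and lost the call, and 1 turned. For IL-6 in HET the largest SE of a mitochondrial gene was 0.55, that of Lars2, and the next was 0.24, that of Pars2.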
